A study of Rattus norvegicus with 6 samples.

Results

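The genes described here are Mapk7, which encodes the MAP kinase ERK5, and 8 genes named beside it: the kinases Map2k5, Map3k2 and Map3k3 of its cascade, the transcription factor genes Mef2a, Mef2c and Mef2d, the target gene Klf2, and Mapk3, which encodes the related kinase ERK1. They were found by symbol as 9 of the 43350 gene rows of an RNA-seq table of rat dorsal root ganglia (DRG). Mapk7 was chosen by its counts, which were above 0 in every sham library and at 0 in every library from injured rats, so its own difference between the groups is a description without a test. The other 8 were chosen by symbol for their place in or beside the pathway, and the rule did not use their counts.

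The libraries came from the lumbar DRG, which hold the cell bodies of the sensory neurons of the sciatic nerve, taken on the operated side from male Sprague-Dawley rats. In 3 rats the left sciatic nerve had been loosely tied (chronic constriction injury, CCI), a model of neuropathic pain, and 3 sham rats went through the exposure of the nerve without a tie. Both groups were untreated otherwise and were sampled on day 11 after surgery. The labels give no age, and by the methods only rats that showed the behaviour their surgery should give were kept.

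In the ERK5 pathway, growth factors such as the neurotrophins act through receptor kinases on the kinases MEKK2 and MEKK3, the products of Map3k2 and Map3k3. These activate MEK5, the product of Map2k5, which phosphorylates ERK5 and few other proteins. ERK5 has a kinase domain and a long carboxy-terminal tail with transcriptional activity, and it activates transcription factors of the MEF2 family. KLF2, a transcription factor best known from endothelium under flow, is among the best described targets of ERK5 and MEF2. In sensory neurons the pathway is known for carrying neurotrophin signals from axon to cell body, where they support survival. ERK1 belongs to a separate cascade, fed by RAF kinases and MEK1 and MEK2.

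MEF2 proteins bind a short AT-rich element, and they are known to regulate genes of their own family. The promoter of Mef2a is shown because it was the only one, among those available for the 9 genes, in which the element was found. Windows of 300 bases, 250 before to 50 after the start of the gene, were available from RefSeq (build GRCr8) for 6 of the 9 genes, and both strands were searched for the MEF2 consensus. The window below lies at chr1:130392183-130392212 on the minus strand of GRCr8, and the capitals mark the match, from 40 to 31 bases before the start of the gene.
Mef2a: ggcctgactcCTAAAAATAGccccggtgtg
The same consensus was found in 3.29% of all 33469 promoter windows and in 0 of the 16 windows available for 11 of 19 listed ERK5 and MEF2 target genes. The match is a description of the letters in this window.

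Totals ranged from 75423546 to 87615743 counts per library, and the scaling factors (TMM) from 0.988 to 1.01. Levels in CPM, counts relative to the library total, are scaled with these factors, and levels of different genes are compared only as FPKM, the authors' values per kilobase of length and scaled to library size. A row was called where edgeR's quasi-likelihood test passed the study's own limits, a p below 0.05 before adjustment together with a fold of 0.58 or more on the log2 scale, up or down. Of the 26663 rows tested, 3.83% were called, 2.57% higher and 1.26% lower in CCI. Markers of neurons were well covered, with a summed level of 10985 to 12782 CPM over 8 genes in CCI and 13077 to 13955 CPM in sham. The 8 went both ways in log2 fold change. Tubb3 was at 0.31, Prph at 0.25 and Uchl1 at 0.05, against Nefl at -0.57, Snap25 at -0.39, Nefm at -0.29, Scn9a at -0.28 and Rbfox3 at -0.24. The Sham 1 library stood apart in skeletal muscle markers, with 507 CPM summed over 9 genes against 74.4 and 123 CPM in the other sham libraries and 54.1 to 64.6 CPM in CCI. Outside Sham 1, most of each sum was Pvalb, at 39.2 to 48.0 CPM in CCI, 62.1 in Sham 2 and 68.5 in Sham 3. The sums of those libraries are thus mainly a reading of that gene. Sham 3 was nonetheless second to Sham 1 in each of the 9 genes. Its Acta1 was at 14.1 CPM, against 4.21 CPM in Sham 2 and 4.21 to 7.27 CPM in CCI. Of the 9 genes, 6 were called lower in CCI, Pvalb among them. 4 of 8 macrophage markers were called higher in CCI (range of summed levels 103 to 146 CPM, against 71.9 to 91.2 CPM in sham).

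Mapk7 was read in every sham library and in no CCI library. Its counts were 1106 in Sham 1, 926 in Sham 2 and 1047 in Sham 3, and 0 in each of CCI 1, CCI 2 and CCI 3. The sham level was 12.3 ± 0.554 CPM (SD, n = 3), and the coefficient of variation among the 3 sham libraries was 4.50%. Thus the groups did not overlap and the sham libraries lay close together. Set against a floor of 3 counts per library, the level in CCI was at least 325-fold lower. At the sham level, the CCI libraries would have held 1000, 993 and 937 Mapk7 counts. Among all 26663 rows tested, 8.7% had every CCI library below every sham library, which is given for scale only, since the rule for Mapk7 used the same values. In bulk tissue, fewer cells of a type and less RNA per cell cannot be told apart.

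**Figure D1:**
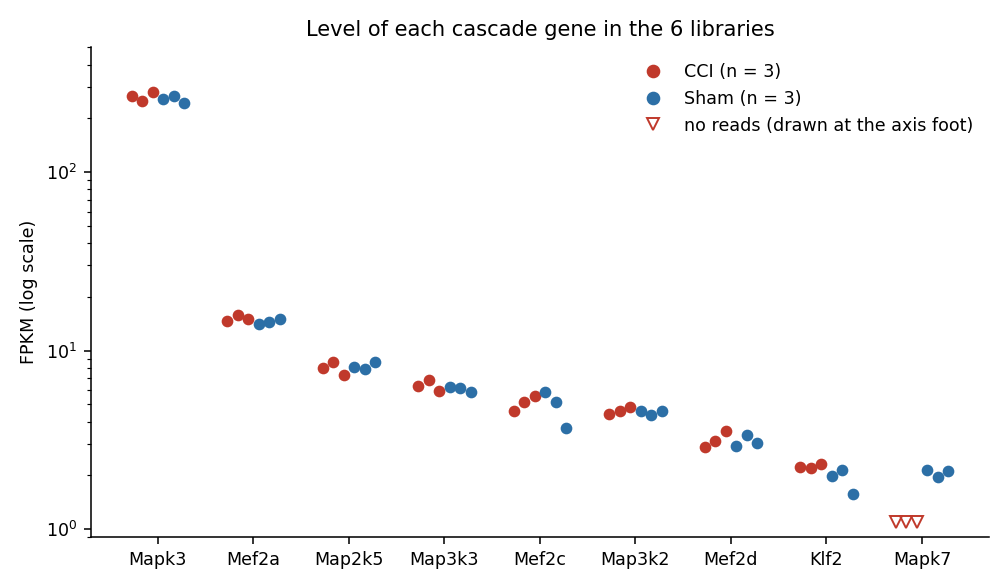
Level of the 9 genes in each library, as FPKM on a logarithmic axis, with CCI and sham libraries as separate points. Mapk7 had no reads in all 3 CCI libraries, drawn as open triangles at the foot of the axis that mark no level. In sham it lies at 1.97 to 2.15 FPKM, while the points of the other 8 genes lie side by side.

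A reading of 0 with this depth elsewhere was rare in the table. In all, 54 rows had 0 counts in every CCI library and reads in every sham library, with a median of 4 for the lowest sham count, and 72 rows had the opposite pattern, with a median of 3.5 for the lowest CCI count. Mapk7 led the former set with a lowest sham count of 926. The row next to it, the lincRNA AABR07050134, had 77, 84 and 70 counts in the sham libraries. Mapk7 was also the only row with at most 3 counts in every CCI library and at least 100 in every sham library. 3 rows had that pattern reversed. LOC103689927, a protein-coding row on chromosome 10 as well, had 689, 618 and 640 counts in CCI and 0 in each sham library, and the other 2 were assembled rows without a symbol.

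Zeros beside high counts were also seen where they did not follow the groups. In a count made after the values were seen, 24 protein-coding rows, Mapk7 among them, had 0 counts in 1 to 5 libraries and at least 500 in all the others, against 9374 rows with at least 500 in all 6. Impad1 was at 0 in CCI 1 and between 3972 and 4877 counts in the other libraries. Map3k7, which encodes the MAP kinase kinase kinase TAK1, was at 0 in Sham 3 and between 1862 and 2220 counts elsewhere. Tlx2 was at 0 in CCI 1 and Sham 2 and between 564 and 702 counts elsewhere. With the limit lowered to 100 counts, 59 protein-coding rows had such zeros, of which 7 were at 0 in exactly 3 libraries. In 2 of those 7, Mapk7 and LOC103689927, the zeros filled 1 group. How much of the Mapk7 reading has to do with how reads were assigned to rows was not tested.

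**Figure D2:**
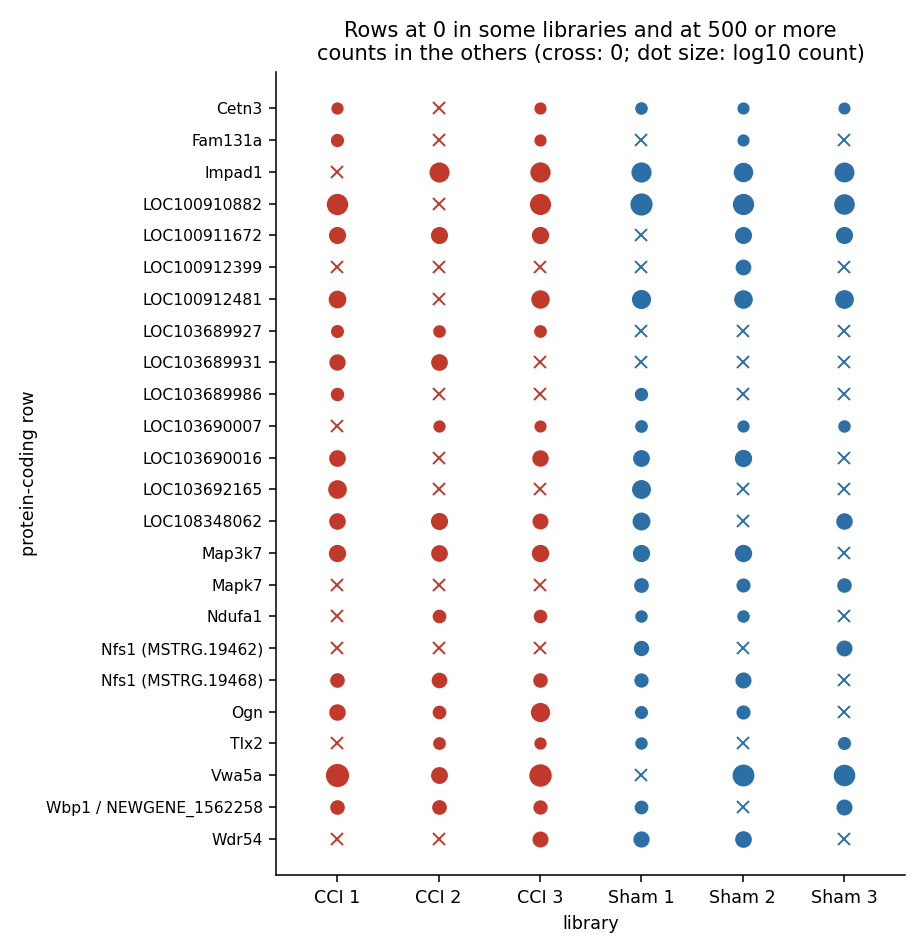
The 24 protein-coding rows at 0 counts in 1 to 5 libraries and at 500 or more in all the others, 1 line per row. Crosses mark libraries at 0, and the size of a dot follows the logarithm of the count. In Mapk7 and LOC103689927 the zeros fill exactly 1 group.

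The Mapk7 row (ENSRNOG00000002412) lies on the minus strand of chromosome 10, from 47766680 to 47775055, in the coordinates of the authors' table, whose genome the methods name only by a release number. It has 1 transcript, and the authors give it a length of 5880 bases. It is the only row of its symbol. 1 row overlaps it: Mfap4, which encodes a microfibril-associated glycoprotein of the extracellular matrix, on the plus strand from 47765432 to 47768483, shares 1804 bases with the 3′ end of Mapk7. The libraries were made with a protocol that keeps the strand, but the sources used here do not say whether strand was used in counting, so reads in the shared stretch cannot be assigned with certainty.

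Mfap4 was not higher in the CCI libraries in which Mapk7 was at 0. It had 124, 0 and 195 counts in CCI and 0, 130 and 203 in sham, so that each group held 1 library at 0. Its fitted log2 fold change was -0.00 (SE 1.71), with an adjusted p of 0.9997 (edgeR quasi-likelihood test, Benjamini-Hochberg over 26663 rows). Added together, Mapk7 and Mfap4 came to 124, 0 and 195 counts in CCI and 1106, 1056 and 1250 in sham, which made the sham level 10.04 times that of CCI.

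The nearest row on the lower side, Rnf112, encodes a RING finger protein of neural tissue and ends 11909 bases from Mapk7 on the same strand. It had 2121, 3033 and 3252 counts in CCI and 4253, 3850 and 4040 in sham. Every CCI library was below every sham library, with a log2 fold change of -0.45 (SE 0.17, edgeR p 0.0351, adjusted p 0.418), short of the fold limit for a call. The nearest row on the upper side, LOC108348055, begins 9977 bases away and had 161, 0 and 178 counts in CCI against 241, 68 and 357 in sham. Its groups overlapped.

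**Figure D3:**
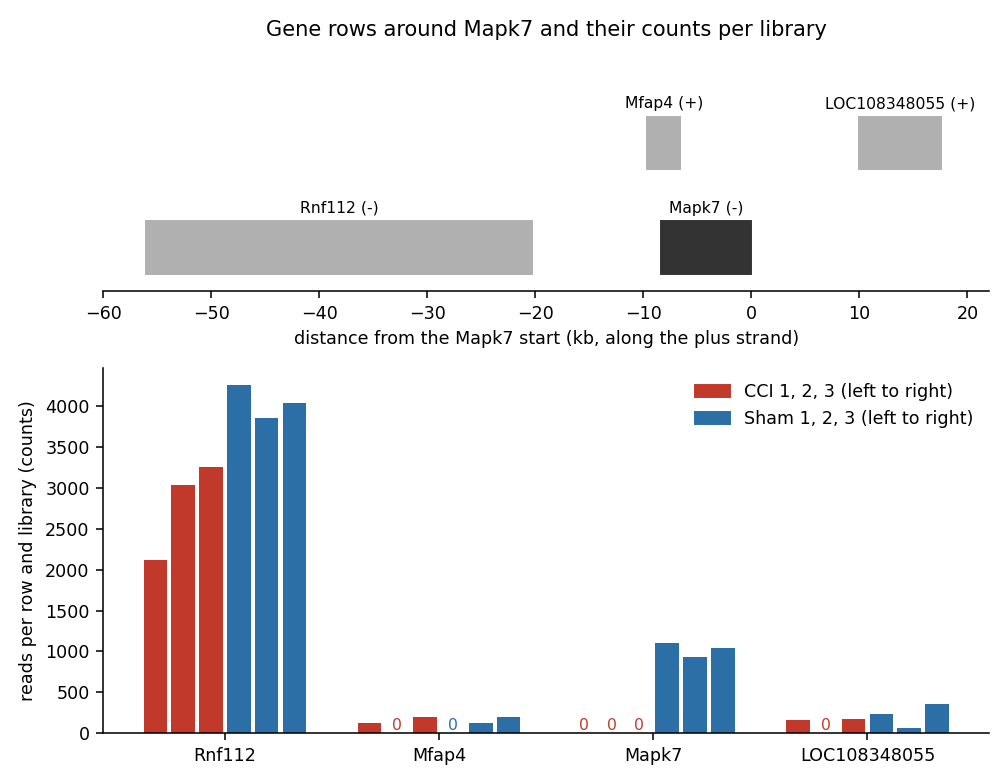
Position and strand of Mapk7, of the row that overlaps it and of the nearest rows on either side (upper panel). Below are their counts, with CCI and sham libraries as separate bars. Only Mapk7 has all 3 CCI libraries at 0 and all 3 sham libraries above 900, while Mfap4 has a library at 0 in each group.

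In sham ganglia ERK5 was among the lower MAP kinases. By mean FPKM Mapk7 stood at 2.08 ± 0.0998 (SD, n = 3), in place 12 of 14 MAP kinase genes. Mapk3, the highest, was at 256 ± 10.4 FPKM, 123 times the level of Mapk7. These places depend on the authors' row lengths, such as 1954 bases for Mapk3, 5880 for Mapk7 and 28860 for Nlk. The neighbours of Mapk7 in this order were Mapk4 at 2.74 ± 0.599 FPKM and Mapk13 at 0.487 ± 0.570 FPKM. The sham range of Mapk7, 1.965 to 2.147 FPKM, ended just below that of Mapk4, 2.152 to 3.349 FPKM, and lay above that of Mapk13, 0.0636 to 1.13 FPKM.

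Over all 6 libraries, the FPKM order of the 9 genes began with Mapk3 (mean 261), Mef2a (14.9), Map2k5 (8.09) and Map3k3 (6.24), and none of these overlapped its neighbour in range. Mef2c (5.00) and Map3k2 (4.56) overlapped each other. Mef2d (3.15) and Klf2 (2.08) followed without overlap, and the sham level of Mapk7 lay within the range of Klf2, 1.58 to 2.31 FPKM. The order depends on the authors' row lengths, which were 17160 bases for Mef2d and 13817 for Map3k2 against 3731 for Mef2a and 2516 for Map2k5. The Mef2d row joins 7 transcripts, of which 1 is annotated. All 9 genes passed the filter of a mean of 0.5 FPKM, Mapk7 through its sham libraries alone.

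None of the 8 other genes was called in either direction. Since 3.83% of all rows were called, 0 calls among 8 genes is near the background. Of the 8, 0 had an unadjusted p under 0.05, also with DESeq2 and with limma, and the smallest adjusted p was 0.676 (edgeR), where 0.0938% of all rows passed an adjusted p of 0.05. Their log2 fold changes ran from -0.06 to 0.23, with a median of 0.04, against a median of 0.01 over all rows tested. The p-values measure the spread between rats, 1 per library by the methods, although a label speaks of pooled samples.

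The kinases above ERK5 were read at like levels in both groups. Map2k5, the direct activator of ERK5, had 1622, 1754 and 1382 counts in CCI and 1784, 1594 and 1813 in sham. Its level was 19.9 ± 1.80 CPM in CCI and 20.8 ± 1.01 CPM in sham (SD, n = 3 each). The log2 fold change was -0.06 with a 95% interval from -0.28 to 0.16, and the groups overlapped.

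Map3k2 had 4948, 5112 and 5035 counts in CCI and 5533, 4810 and 5329 in sham. Its level was 63.4 ± 2.61 CPM against 62.6 ± 1.94 CPM, and its log2 fold change 0.02, from -0.12 to 0.16. The narrow interval goes with the smallest spread among the 9 genes, a coefficient of variation of 3.73% in FPKM over the 6 libraries. Map3k3 had 2598, 2758 and 2269 counts in CCI and 2769, 2508 and 2489 in sham, with a log2 fold change of 0.04, from -0.13 to 0.22. For both MEKK genes the groups overlapped.

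Map2k5 (chromosome 8, 68055972 to 68282590, minus strand), Map3k2 (chromosome 18, 24961245 to 25033989, plus strand) and Map3k3 (chromosome 10, 94280703 to 94349368, plus strand) are assembled rows matched to protein-coding genes. Map3k2 has 2 further assembled rows without a strand inside its span, with 58 to 153 counts per library, neither of them called.

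The MEF2 genes differed from each other in spread more than between the groups. Mef2a had 4449, 4748 and 4244 counts in CCI and 4587, 4342 and 4690 in sham. Its level was 56.4 ± 2.14 CPM in CCI and 54.5 ± 2.27 CPM in sham, a log2 fold change of 0.05 (from -0.10 to 0.20). Mef2d had 4039, 4313 and 4582 counts in CCI and 4369, 4627 and 4374 in sham, with a log2 fold change of 0.02 (from -0.21 to 0.25). Both genes overlapped between the groups.

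Mef2c varied most of the 8, with a coefficient of variation of 15.5% in FPKM. It had 2803, 3134 and 3174 counts in CCI and 3893, 3120 and 2344 in sham. The sham libraries thus held both its highest level, 44.3 CPM in Sham 1, and its lowest, 28.3 CPM in Sham 3, and the CCI libraries lay between at 34.5 to 41.6 CPM. The log2 fold change was 0.04 with an interval from -0.37 to 0.44. MEF2C is known from muscle as well as from neurons, and Sham 1 was also the library highest in muscle markers. Sham 3, where Mef2c was lowest, was the next highest in each of these markers. Without Sham 1 the log2 fold change of Mef2c was 0.18, and without Sham 3 it was -0.12. The part of muscle RNA in it was not tested.

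Mef2a lies on the minus strand of chromosome 1 (128209971 to 128341263), and Mef2c (11658568 to 11820594) and Mef2d (187508350 to 187543853) lie on the plus strand of chromosome 2. An assembled row that carries the Mef2a symbol lies inside Mef2a on the opposite strand, at 128246885 to 128262787. It had 1528, 1833 and 1457 counts in CCI and 1649, 1297 and 1299 in sham, with every CCI library above every sham library in CPM. Its log2 fold change was 0.26 (SE 0.11, edgeR p 0.0599, adjusted p 0.492), so it was not called. Without strand in the counting, reads of the paired rows cannot be told apart.

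Mapk3, the ERK1 gene of the neighbouring cascade (chromosome 1, 198192773 to 198198975, plus strand), had 42255, 39131 and 41686 counts in CCI and 43741, 41646 and 40128 in sham. Its log2 fold change was 0.04, from -0.11 to 0.19. A change of more than 1.14-fold upward lies outside this interval, whose width comes from the spread between the rats of each group.

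Klf2, the target gene (chromosome 16, 19222051 to 19225037, minus strand), had 481, 472 and 464 counts in CCI and 461, 457 and 353 in sham. Its level was 5.92, 5.85 and 6.09 CPM in CCI and 5.24, 5.75 and 4.27 CPM in sham. Every CCI library was above every sham library, by a small margin over Sham 2. Klf2 was the only one of the 8 genes whose groups did not overlap, whereas 17.3% of all rows tested had groups that did not overlap, 8.63% with CCI higher. The log2 fold change was 0.23 with an interval from -0.13 to 0.58 (edgeR p 0.176, adjusted p 0.676), and it did not pass. Endothelial markers, read as the summed level of 7 genes found, ran from 92.9 to 129 CPM in CCI and from 111 to 138 CPM in sham. Of that list, 0 of the 6 genes tested were called, Cldn5 was at 0, and Pecam1 was not found in the table.

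**Figure D4:**
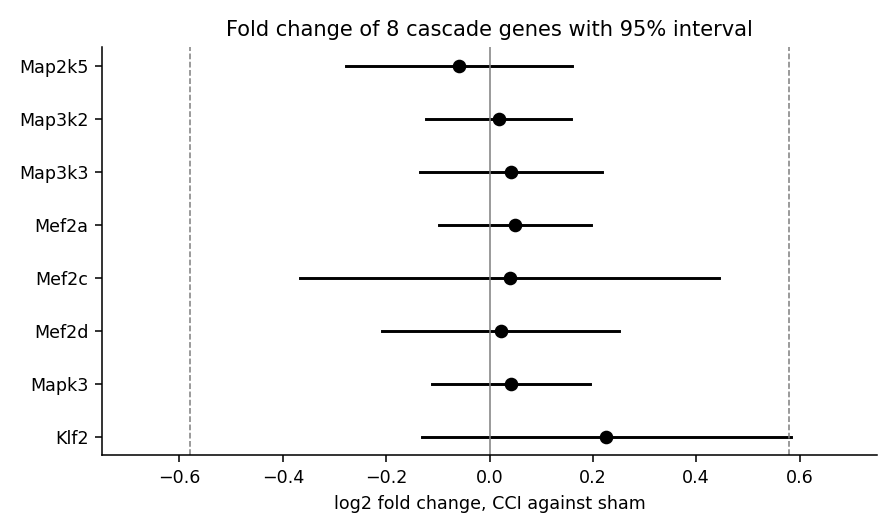
Log2 fold change of CCI against sham for the 8 genes other than Mapk7, as points with 95% intervals, and the limits of 0.58 as dashed lines. Every interval includes 0, and that of Klf2, from -0.13 to 0.58, reaches farthest up.

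Genes around the cascade were taken from 7 lists with 89 distinct genes, of which 80 were tested. 3 were called higher in CCI and 0 lower, 3.75% of those tested, close to the background of 3.83%. The median log2 fold change over the 80 was -0.01. All 3 belong to the list of ERK5 and MEF2 target genes, where 3 of 17 tested genes were called and the median was 0.18. None of the 80 passed an adjusted p of 0.05.

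Jun encodes a subunit of the transcription factor AP-1 and is a well known gene of the axon injury response. It had 13583, 10727 and 9049 counts in CCI and 5787, 5334 and 5619 in sham, so every CCI library was far above the sham libraries. The level was 140 ± 24.8 CPM against 67.0 ± 1.07 CPM (SD, n = 3 each), a log2 fold change of 1.06 (SE 0.12, edgeR p 9.2e-05, adjusted p 0.0712).

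Bdnf encodes a neurotrophin and stands both among the targets and among the upstream genes. It had 3349, 2722 and 2288 counts in CCI and 1931, 1752 and 1576 in sham, without overlap. The level was 35.0 ± 5.69 CPM against 21.0 ± 1.71 CPM, a log2 fold change of 0.73 (SE 0.13, edgeR p 0.00106, adjusted p 0.134).

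Thbd encodes thrombomodulin, an endothelial inhibitor of coagulation that KLF2 is known to raise. It had 2861, 2936 and 2601 counts in CCI and 2495, 1751 and 1442 in sham, without overlap in CPM. The level was 35.2 ± 1.12 CPM against 22.6 ± 5.49 CPM, a log2 fold change of 0.64 (SE 0.17, edgeR p 0.00813, adjusted p 0.267). Without Sham 3 its log2 fold change was 0.48 and the call was lost. The macrophage markers that were higher in CCI moved in the same direction as these 3 genes, and their part was not tested.

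Other genes of the target list were not called. Klf4, a close relative of Klf2, had a log2 fold change of -0.15 (adjusted p 0.884). Nr4a1, an immediate early gene, was at 0.04, and Bcl2l2, a survival gene linked to ERK5 in neurons, at 0.00. Fos, named after its values were seen, was at 0.68 with an SE of 0.52 (edgeR, adjusted p 0.724). CCI 2 held 1909 Fos counts and the other libraries 483 to 784.

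Upstream of the cascade, 8 of 11 neurotrophin and receptor genes were tested, with a median log2 fold change of -0.15 and Bdnf as the only call. Among the partners and regulators of ERK5, 0 of 11 tested were called. Sqstm1, whose product p62 is a scaffold for MEK5, was at -0.11. The cascade of ERK1 gave 0 calls among 13 tested, with a median of -0.09, Map2k1 at 0.13 and Map2k2 at 0.09.

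The JNK and p38 cascades gave 0 calls among 16 tested, with a median of -0.11, Mapk8 at 0.13 and Mapk14 at 0.10, and the other MAP kinases 0 among 3. The cofactors and repressors of MEF2 gave 0 among 13. Hdac4 and Hdac5, which encode class IIa deacetylases that hold MEF2 targets silent, were at -0.06 and -0.02. Mef2b was under the filter, with 0 to 16 counts per library.

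**Figure D5:**
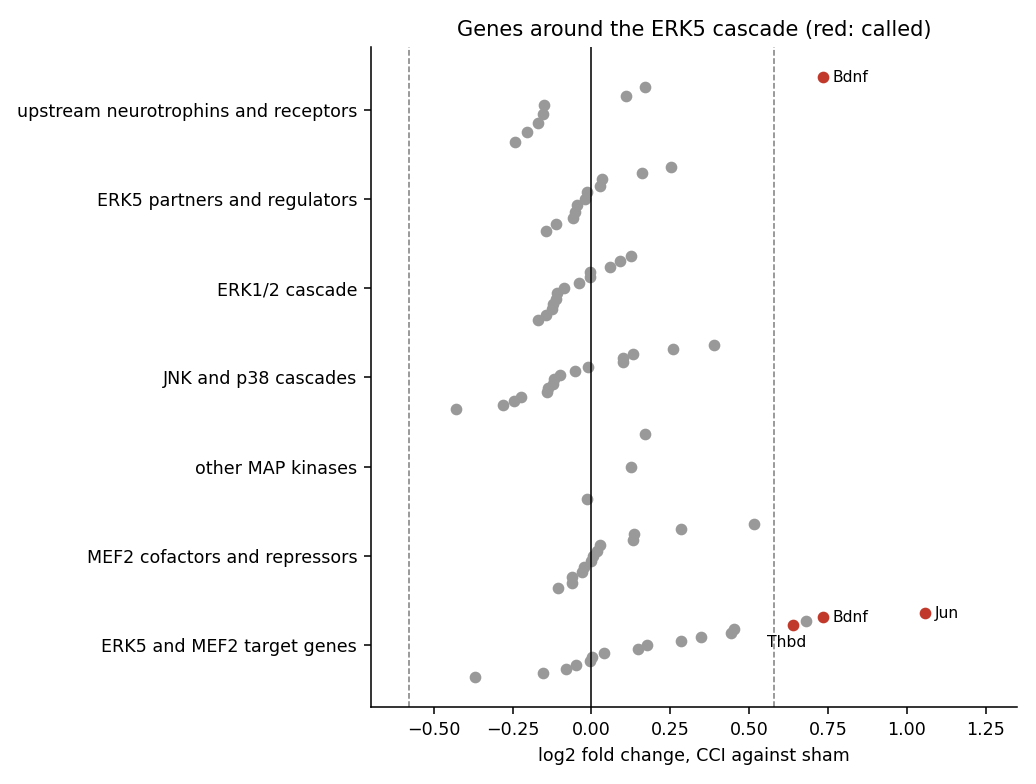
Log2 fold change of CCI against sham for the tested genes of the 7 lists, 1 point per gene, with called genes in red and the limits of 0.58 as dashed lines. Jun, Bdnf and Thbd are the called genes, Bdnf is drawn in both lists that hold it, and the grey point beyond the upper limit is Fos.

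A further 8 genes of these lists had an unadjusted p under 0.05 with a smaller fold. With the 3 called genes these are 11 of the 80 tested, whereas 10.7% of all rows tested had a p under 0.05. They are named here after their values were seen. 6 were lower in CCI: Map2k4 at -0.25 and Map2k6 at -0.22, kinases of the JNK and p38 cascades, Map3k13 at -0.28, Mapk12 at -0.43, and the receptors Ntrk3 at -0.24 and Fgfr1 at -0.15. The 2 others were higher, Camk2d at 0.51 and Klf6 at 0.28. None passed after adjustment, the smallest adjusted p being 0.177 for Map2k4 (edgeR).

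The rows whose pattern over the 6 libraries was most like that of Mapk7 were found by Pearson's r of log2(CPM + 0.1), as a description. Since Mapk7 separates the groups almost as an on and off reading, rows that rank high are those with little spread within each group. Hapln1, which encodes a link protein of the perineuronal matrix, came first with an r of 0.999. It had 1374, 1415 and 1355 counts in CCI and 3487, 3085 and 3348 in sham, a log2 fold change of -1.19. No test is given for it, since the row was picked by its likeness to Mapk7 over the same libraries. Aplp2, which encodes a relative of the amyloid precursor protein, had an r of 0.999 with 478 to 485 CPM in CCI and 589 to 592 CPM in sham. Arhgap35 had an r of 0.998 with 363 to 368 CPM against 419 to 423 CPM. A row joining AABR07031445 and AABR07031465 had an r of 0.996. The r of the 8 other genes with Mapk7 ran from -0.68 for Klf2 to 0.34 for Map2k5, over the same 6 libraries.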

How the data were processed

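RNA of rat DRG, depleted of ribosomal RNA, was sequenced in pairs. The authors mapped reads with HISAT2 2.0 and assembled and quantified them with StringTie 1.3.0 (versions from the submitters' processing notes). The deposited table gives raw counts and the authors' FPKM for 43350 gene rows, with a count of 0 listed as an FPKM of 1e-04. Rows without a symbol, 6849 in number, held 5.37% to 5.72% of counts and were kept as assembled genes. Groups came from the sample labels.

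Rows whose FPKM averaged 0.5 or more over the 6 libraries entered edgeR 4.0.16 (quasi-likelihood, TMM, group only) in R 4.3.3, with Benjamini-Hochberg adjustment over all 26663. DESeq2 1.42.0 and limma 3.58.1 were alternatives, with other scalings, filters, a replicate block and each library left out in turn. Likeness used a pseudocount of 0.1. Totals of 75423546 to 87615743 counts put the floor of 3 counts at 0.0341 to 0.0394 CPM, which covers counting error only.

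The genes and lists were chosen with earlier results of these data known. Named were the 9 genes, a fixed set of 14 pathway genes, every called list gene, rows overlapping or next to Mapk7, the 5 rows most like it, and rows at or under 3 counts in 1 group and at 100 or more in the other. Genes named after their values were seen are marked as such, apart from neighbours in an order and members of marker lists. Some items that this rule names are not reported here.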

Additional observations from a re-analysis of the deposited data

How the results depend on the processing

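None of the 8 genes other than Mapk7 was called under any alternative run, and in 113 of 122 refits of a single gene the direction stayed as given. The sign turned in 9 refits that left out 1 library: without CCI 3 the log2 fold change was 0.0054 for Map2k5, -0.013 for Map3k2, -0.026 for Mef2c, -0.057 for Mef2d and -0.00038 for Mapk3. It was -0.0075 for Map3k3 without CCI 2, -0.031 for Mef2d without Sham 1, -0.0048 for Map3k2 without Sham 2 and -0.12 for Mef2c without Sham 3. The opposite ends of these ranges were -0.12 for Map2k5, 0.047 for Map3k2, 0.090 for Map3k3, 0.18 for Mef2c, 0.086 for Mef2d and 0.088 for Mapk3. No other row overlaps any of the 8 genes on its own strand, so summing such rows changed nothing and was not refitted, and summing rows of a symbol applied to Map3k2 and Mef2a. The bound for Mapk7 was 321-fold to 334-fold when a library was left out, and the summed Mapk7 and Mfap4 counts gave 10.04, a ratio that counts Mfap4 reads on both sides. Over all rows, 686 were called higher and 336 lower. These counts were 410 and 161 with limma on log2(FPKM + 1), a pseudocount that shrinks low rows, and 328 and 113 with protein-coding rows only, where fewer rows are tested. Leaving out a library gave 561 to 767 higher and 312 to 421 lower. Of the pathway lists 3 or 4 genes were called higher and 0 lower under every alternative, though not always the same genes. Egr1 joined Bdnf, Jun and Thbd without CCI 1, and Camk2d joined them without CCI 2. Without Sham 3 the called genes were Bdnf, Jun and Mapk13. Egr1, Camk2d and Mapk13 are named here after their values were seen. Rows with an adjusted p under 0.05 were 25 in the edgeR test, 17 higher and 8 lower, 432 and 319 with DESeq2, and 36 and 35 with protein-coding rows only. This count moved with the library left out. It was 40 and 21 without CCI 1, 3 and 3 without CCI 2 and 30 and 8 without CCI 3. For the sham libraries it was 4 and 4 without Sham 1, 15 and 13 without Sham 2 and 13 and 4 without Sham 3.

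The labels number the replicates 1 to 3 in both groups. Same-numbered libraries did not deviate together (correlations of their deviations -0.012, -0.025 and -0.060). The labels do not say whether they shared a surgery day or a preparation, and this was not tested. A replicate block gave 617 rows higher and 318 lower, 0 with an adjusted p under 0.05, 0 calls among the 8 genes and 3 among the lists.

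Klf2 had the fewest counts of the 8 genes, 353 to 481 per library, and 3 rats a group leave the interval of Mef2c open from -0.37 to 0.44.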
